A study of Mus musculus with 8 samples.

Results

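Zic1, Otx1, Tfap2b, Ednrb, Cbln1, Gap43, Map2, Crmp1 and Elavl3 are known from the dorsal neural tube, the neural crest and developing neurons, and their levels were followed in mouse embryonic stem (ES) cells that were being directed towards endoderm and lung. The 9 genes were taken by symbol, as 9 of the 16593 genes that the platform annotation names, and they were chosen from their levels on these same 8 arrays. All differences between groups given for them are therefore descriptions, without a test. Their 17 probes were read on Illumina BeadChips, on which each gene's RNA binds to beads that carry its probe. All 9 genes had at least 1 probe detected on 2 or more arrays, detection meaning a detection p under 0.05, and each gene is given by its brightest such probe.

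Cells of the ES line E14TG2a formed 4 groups of 2 arrays. The cells of the IDE2 group received IDE2, an inducer of definitive endoderm, at 1 uM over 11 days. The IDE2+FGF2 group had IDE2 for 6 days and then fibroblast growth factor 2 at 500 ng/ml for 5 days, and the IDE2+FGF10 group had IDE2 for 6 days and then fibroblast growth factor 10 at 25 ng/ml for 5 days. The ES group was undifferentiated and had been kept with fetal calf serum and leukaemia inhibitory factor. All 3 differentiated groups had a medium with N2, B27 and serum, and no group was differentiated without IDE2, so IDE2 cannot be told apart from time and medium in a comparison with ES. The FGFs were given at different concentrations, so their groups are set side by side at unmatched doses.

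The dorsal part of the neural tube is patterned by Wnt and bone morphogenetic protein signals from the roof plate, and the neural crest arises at its border and leaves it to form peripheral neurons, glia and pigment cells. Transcription factors of the Zic, AP-2 and Otx families mark stages or regions of these tissues, Ednrb is the endothelin receptor of migrating crest cells, and Gap43, Map2, Crmp1 and Elavl3 serve neurite growth and neuronal RNA control. None of these genes is restricted to neural tissue: AP-2 genes are also used in surface ectoderm and kidney, Zic1 in somites and Ednrb in endothelium. In a culture, fewer cells of a type and less RNA per cell cannot be told apart.

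The 9 genes fell into 3 kinds of pattern by their levels. Tfap2b, Cbln1 and Otx1 were high in IDE2 and IDE2+FGF10 and were at or near background in IDE2+FGF2, while Zic1 and Ednrb ran in the order IDE2, IDE2+FGF10, IDE2+FGF2, ES. Gap43 and Map2 were higher in all 3 differentiated groups than in ES, Gap43 by 10.8-fold to 12.3-fold. Crmp1 and Elavl3 were highest in ES.

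Markers of neural tissue were seen in part. Of the genes with a named probe, 19 of 29 neural progenitor and dorsal neural genes, 10 of 21 neural crest and glial genes, 13 of 22 neurogenesis factors and 23 of 35 neuronal genes passed the detection filter. Sox2 and Nes, of neural progenitors, Twist1, Ets1, Slc1a3 and Mbp, of crest or glia, and Stmn2, Stmn3, Nefm, Syp and Syn1, of neurons, were detected on all 8 arrays, those of ES included. Sox1, Sox3 and Pax6, which mark neural progenitors, were not detected on any array, and neither were the neuronal genes Tubb3 and Snap25, the crest gene Foxd3 or the glial genes Gfap and S100b. The crest gene Sox10 had no named probe and is not analysed here. The 9 genes are called by their symbols and not by a cell type.

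The stretch of 250 bases before the annotated start of transcription is shown for 5 of the 6 genes that had an entry in the RefSeq table of mouse build GRCm38.p6, so that each pattern of levels is represented. They are Tfap2b (chr1:19211804-19212053, plus strand), Zic1 (chr9:91365769-91366018, minus strand), Ednrb (chr14:103843702-103843951, minus strand), Map2 (chr1:66175079-66175328, plus strand) and Crmp1 (chr5:37241808-37242057, plus strand, the first of its 2 windows), each upstream of the gene and written 5′ to 3′ on the gene's strand. Capitals mark matches, on either strand, to the AP-2 motif GCCNNNGGC or the Otx motif TAATCC.
Tfap2b: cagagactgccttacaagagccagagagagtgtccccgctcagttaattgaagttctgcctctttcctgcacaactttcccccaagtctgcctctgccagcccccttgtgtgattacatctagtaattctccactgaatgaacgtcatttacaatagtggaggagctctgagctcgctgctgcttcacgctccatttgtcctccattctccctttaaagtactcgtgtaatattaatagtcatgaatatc
Zic1: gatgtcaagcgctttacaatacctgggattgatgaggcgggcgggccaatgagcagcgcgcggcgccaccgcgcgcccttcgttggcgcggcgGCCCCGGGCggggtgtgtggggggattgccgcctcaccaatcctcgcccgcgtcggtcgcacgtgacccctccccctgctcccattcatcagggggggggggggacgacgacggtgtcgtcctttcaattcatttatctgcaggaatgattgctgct
Ednrb: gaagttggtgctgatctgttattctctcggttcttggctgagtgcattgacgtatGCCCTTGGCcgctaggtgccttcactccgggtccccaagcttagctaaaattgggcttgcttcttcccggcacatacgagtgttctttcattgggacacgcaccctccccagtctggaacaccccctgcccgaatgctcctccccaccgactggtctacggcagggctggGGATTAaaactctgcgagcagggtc
Map2: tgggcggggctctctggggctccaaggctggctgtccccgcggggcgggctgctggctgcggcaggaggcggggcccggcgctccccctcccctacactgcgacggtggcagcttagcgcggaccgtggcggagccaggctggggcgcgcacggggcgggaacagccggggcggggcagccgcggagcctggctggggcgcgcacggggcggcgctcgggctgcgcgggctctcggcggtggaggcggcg
Crmp1: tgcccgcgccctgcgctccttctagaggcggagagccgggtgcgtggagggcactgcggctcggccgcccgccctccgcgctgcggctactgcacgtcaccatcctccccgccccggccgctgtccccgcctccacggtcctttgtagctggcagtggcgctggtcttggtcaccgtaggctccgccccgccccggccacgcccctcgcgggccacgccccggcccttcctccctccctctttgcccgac
Cbln1, Otx1 and Gap43 had no entry.

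These windows differed in base composition. The Tfap2b window held 5 CpG dinucleotides and 46.4% G or C, against medians of 6 CpG and 52.4% over the 32851 windows of the table. The Zic1 window held 27 CpG and 66.0% G or C and the Crmp1 window 30 CpG and 75.6%, both above the upper quartile of 16 CpG and 61.2%. The Ednrb window, with 11 CpG and 56.8%, lay between. The Map2 window held the most, 34 CpG and 81.2%, the Elavl3 window 20 and 61.6%, and the second Crmp1 window 16 and 59.6%.

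An AP-2 match was found in the Zic1 and Ednrb windows, 1 in each, and in 13.7% of all windows. An Otx match was found only in the Ednrb window among the 7 windows of the 6 genes, and in 6.25% of all windows. The GC box GGGCGG occurred 5 times each in the Map2 and first Crmp1 windows, 2 times each in the Zic1 and second Crmp1 windows, 1 time in the Elavl3 window and in 32.7% of all windows. The CCAAT box occurred 2 times each in the Zic1 and Ednrb windows, 1 time in the Elavl3 window and in 33.9% of all. The E-box CANNTG occurred 2 times in the Elavl3 window, 1 time each in the Tfap2b, Zic1 and second Crmp1 windows and in 66.2% of all windows. A match of this kind is a description of the letters and not a binding site.

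On the 8 arrays, 11609 to 13422 of 25697 probes were detected, and a main probe of the 9 genes was read from 24 to 62 beads. Levels are normalized log2 values with an offset of 16, and the lowest level of a detected probe was 5.36 to 5.79, depending on the array. The arrays of IDE2 and of IDE2+FGF2 were less alike within their group (correlation over genes of 0.958 and 0.964) than those of IDE2+FGF10 and ES (0.990 each). Pou5f1, a gene of undifferentiated cells, was at 9.81 ± 0.71 in IDE2, 12.16 ± 0.58 in IDE2+FGF2, 10.21 ± 0.12 in IDE2+FGF10 and 15.00 ± 0.31 in ES (log2, SD, n = 2 arrays each). With 2 arrays in a group the precision is limited by their number, and the labels do not say whether the arrays come from separate cultures, so errors and p-values measure the spread between these samples only.

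**Figure D1:**
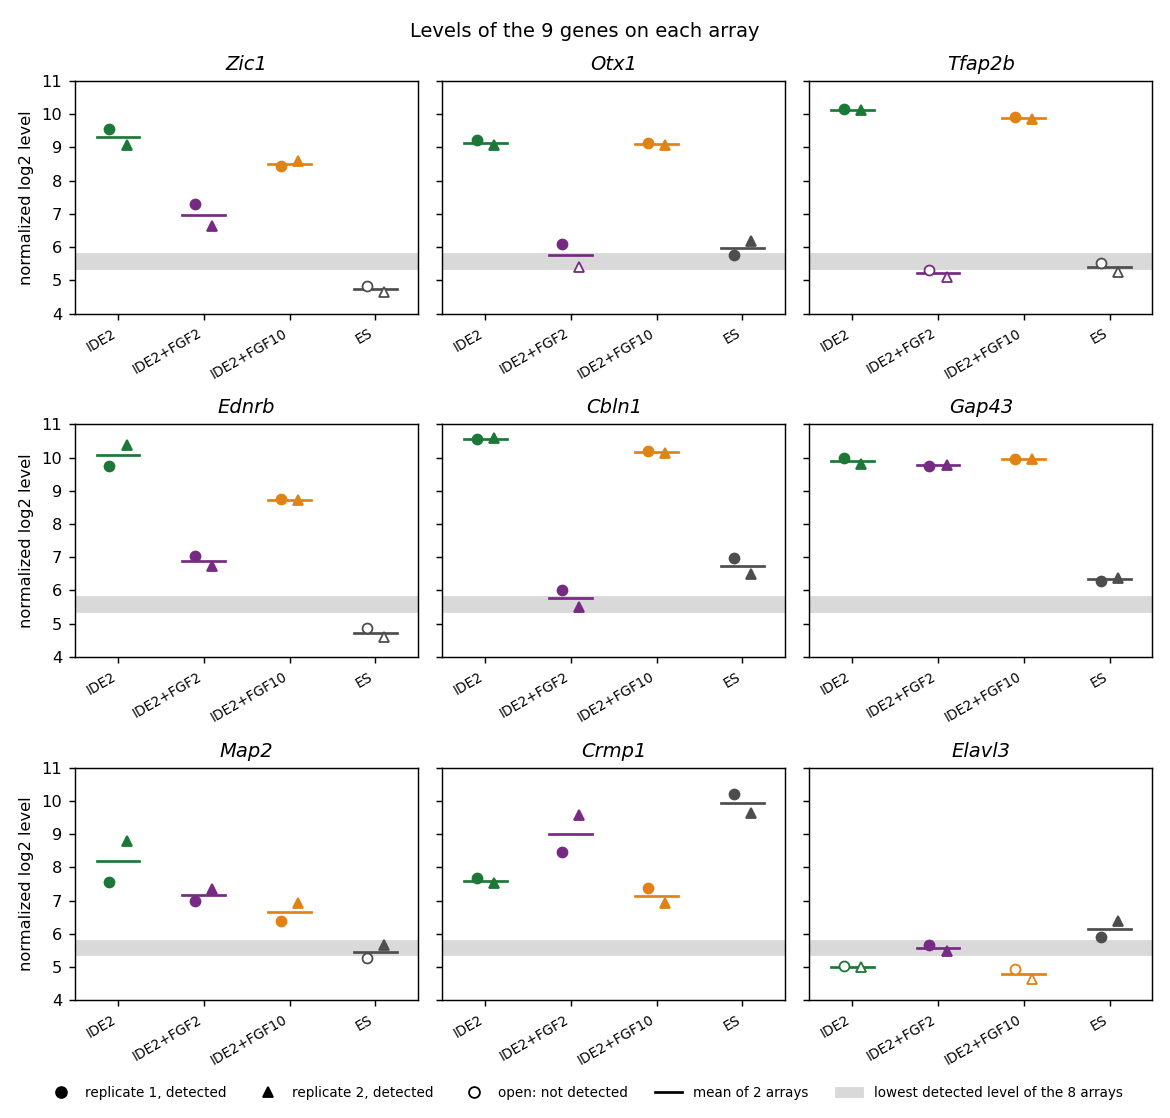
Normalized log2 levels of the 9 genes (vertical axis) on each of the 8 arrays, by group (horizontal axis), with circles for replicate 1, triangles for replicate 2, open symbols where the probe was not detected, lines for the mean of 2 arrays, and a grey band for the lowest detected level of the 8 arrays. Tfap2b, Otx1 and Cbln1 lie above 9 in IDE2 and IDE2+FGF10 and below 7 in IDE2+FGF2 and ES, while Gap43 lies above 9 in all 3 differentiated groups.

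Zic1, a zinc finger factor of the dorsal neural tube, had normalized log2 levels of 9.57 and 9.08 in IDE2, 7.30 and 6.63 in IDE2+FGF2, 8.44 and 8.59 in IDE2+FGF10, and 4.83 and 4.65 in ES (probe ILMN_2491186). Both ES arrays were not detected, all 6 others were, and no 2 groups overlapped. Where a gene was not detected in a group, its fold is a lower bound, taken against the lowest detected level of each array of that group. On that basis Zic1 was at least 12.9-fold higher in IDE2, at least 2.52-fold higher in IDE2+FGF2 and at least 7.38-fold higher in IDE2+FGF10 than in ES. Its log2 change was -2.36 ± 0.32 in IDE2+FGF2 against IDE2 and -0.80 ± 0.32 in IDE2+FGF10 against IDE2 (SE of the fit over all 8 arrays, 2 arrays a group). The first is 5.12-fold and the second 1.75-fold lower.

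Otx1, a homeodomain factor of the forebrain and midbrain, had normalized log2 levels of 9.21 and 9.08 in IDE2, 6.10 and 5.41 in IDE2+FGF2, 9.13 and 9.07 in IDE2+FGF10, and 5.78 and 6.19 in ES (probe ILMN_2690126). IDE2+FGF10 overlapped with IDE2, IDE2+FGF2 overlapped with ES, and the 2 pairs lay apart from each other. The second IDE2+FGF2 array was the only one on which the probe was not detected. Otx1 was 8.94-fold higher in IDE2 and 8.66-fold higher in IDE2+FGF10 than in ES, and 10.5-fold lower in IDE2+FGF2 than in IDE2 (log2 change -3.39 ± 0.31). Between IDE2+FGF10 and IDE2 the log2 change was -0.05 ± 0.31.

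Tfap2b encodes AP-2 beta, a factor of the neural crest and dorsal neural tube. Its main probe (ILMN_1223731) had normalized log2 levels of 10.16 and 10.12 in IDE2, 5.31 and 5.11 in IDE2+FGF2, 9.93 and 9.86 in IDE2+FGF10, and 5.54 and 5.24 in ES. With this probe neither IDE2+FGF2 nor ES was detected on any array, and these 2 groups overlapped, while IDE2 lay slightly above IDE2+FGF10. On the deposited signal scale the same probe read 1029 and 1536 in IDE2, 131 and 156 in IDE2+FGF2, 745 and 724 in IDE2+FGF10, and 119 and 164 in ES. The gene was at least 25.8-fold lower in IDE2+FGF2 than in IDE2, and at least 21.8-fold higher in IDE2+FGF10 than in IDE2+FGF2. Against ES it was at least 22.7-fold higher in IDE2 and at least 19.2-fold higher in IDE2+FGF10. No fold is given between IDE2+FGF2 and ES, where neither was detected.

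The 4 probes of Tfap2b did not all follow IDE2+FGF10 alike. Probes 1 and 2 are annotated to one transcript record and probes 3 and 4 to another. Probe 2 (ILMN_2760450) had normalized log2 levels of 8.25 and 8.38 in IDE2, 5.10 and 5.61 in IDE2+FGF2, 8.12 and 7.88 in IDE2+FGF10, and 5.39 and 5.58 in ES, the same high and low groups as probe 1, although it was detected on the second IDE2+FGF2 array as well. Probe 3 (ILMN_3151298) had 8.02 and 8.29 in IDE2, 4.75 and 5.12 in IDE2+FGF2, 5.71 and 5.87 in IDE2+FGF10, and 5.22 and 5.03 in ES. With probe 3, IDE2 was again high, but IDE2+FGF10 was close to background and detected on 1 array of 2. The log2 difference of IDE2+FGF10 from IDE2 was -0.24 with probe 1, -0.32 with probe 2 and -2.36 with probe 3. Probe 4 was not detected on any array.

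**Figure D2:**
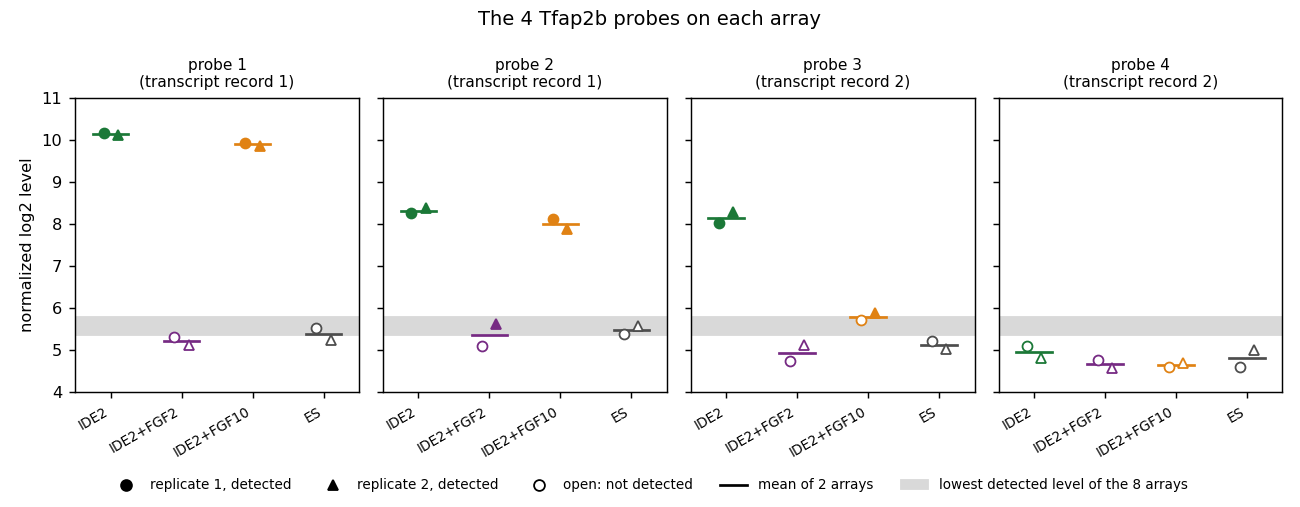
Normalized log2 levels of the 4 Tfap2b probes (vertical axis) on each array by group (horizontal axis), with symbols, lines and grey band as in the plot of the 9 genes, and 1 panel for each probe with its annotated transcript record. Probes 1 and 2 are high in IDE2 and IDE2+FGF10, probe 3 is high in IDE2 alone (8.02 and 8.29), and probe 4 is not detected.

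Ednrb, the endothelin receptor type B of crest-derived pigment and enteric precursors, had normalized log2 levels of 9.75 and 10.39 in IDE2, 7.02 and 6.74 in IDE2+FGF2, 8.74 and 8.73 in IDE2+FGF10, and 4.87 and 4.59 in ES (probe ILMN_2589640). ES was not detected and the 4 groups did not overlap, in the same order as for Zic1. Against ES it was at least 21.6-fold higher in IDE2, at least 2.37-fold higher in IDE2+FGF2 and at least 8.59-fold higher in IDE2+FGF10. It was 9.12-fold lower in IDE2+FGF2 than in IDE2 and 2.52-fold lower in IDE2+FGF10 than in IDE2. A second probe kept this order, with 7.16 and 8.36 in IDE2, 5.65 and 5.76 in IDE2+FGF2, 6.78 and 6.52 in IDE2+FGF10, and 5.09 and 5.11 in ES (log2), and the remaining probe was not detected on any array.

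Among the genes that act with Ednrb, its ligand gene Edn3 was not detected on any array. Edn1, another endothelin, had normalized log2 levels of 8.94 and 9.03 in IDE2, 8.31 and 9.02 in IDE2+FGF2, 8.73 and 8.58 in IDE2+FGF10, and 6.91 and 6.71 in ES. All differentiated groups lay above ES and overlapped in part with each other. Edn2 fell 11.1-fold in IDE2 against ES (limma, Benjamini-Hochberg adjusted p = 1.2e-05), and the receptor gene Ednra had no named probe.

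Cbln1, a secreted protein that joins the sides of cerebellar synapses, had normalized log2 levels of 10.55 and 10.59 in IDE2, 6.02 and 5.51 in IDE2+FGF2, 10.19 and 10.15 in IDE2+FGF10, and 6.98 and 6.50 in ES (probe ILMN_1252953). It was detected on all 8 arrays, no 2 groups overlapped, and IDE2+FGF2 was the lowest. It was 14.2-fold higher in IDE2 and 10.8-fold higher in IDE2+FGF10 than in ES, and 1.96-fold lower in IDE2+FGF2 than in ES (log2 change -0.97 ± 0.30). Against IDE2 it was 28.0-fold lower in IDE2+FGF2 and 1.32-fold lower in IDE2+FGF10. Its relative Cbln2 was detected on 6 arrays, while Cbln3 and Cbln4 did not pass the detection filter.

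Gap43, a protein of growth cones, had normalized log2 levels of 9.99 and 9.81 in IDE2, 9.75 and 9.78 in IDE2+FGF2, 9.97 and 9.94 in IDE2+FGF10, and 6.29 and 6.37 in ES (probe ILMN_1234990). It was detected on all arrays, with the 3 differentiated groups close together and ES far below. Against ES it was 11.9-fold higher in IDE2, 10.8-fold higher in IDE2+FGF2 and 12.3-fold higher in IDE2+FGF10. Its log2 change was -0.13 ± 0.26 in IDE2+FGF2 against IDE2 and 0.06 ± 0.26 in IDE2+FGF10 against IDE2, differences smaller than their SE.

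Map2, which binds dendritic microtubules, had normalized log2 levels of 7.57 and 8.79 in IDE2, 7.00 and 7.34 in IDE2+FGF2, 6.37 and 6.93 in IDE2+FGF10, and 5.26 and 5.66 in ES (probe ILMN_3137552). The groups did not overlap, but the second IDE2 array stood above the first by more than the distance from the first to the nearer IDE2+FGF2 array. The log2 change was 2.72 ± 0.40 in IDE2 against ES, 1.72 ± 0.40 in IDE2+FGF2 against ES and 1.19 ± 0.40 in IDE2+FGF10 against ES. Without the second IDE2 array the first of these was 2.07, and without the first IDE2 array the change in IDE2+FGF2 against IDE2 was -1.62 in place of -1.01. The other 2 probes of Map2 were not detected on any array.

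Crmp1, a collapsin response mediator that acts in semaphorin signalling, had normalized log2 levels of 7.66 and 7.53 in IDE2, 8.45 and 9.56 in IDE2+FGF2, 7.36 and 6.93 in IDE2+FGF10, and 10.22 and 9.64 in ES (probe ILMN_1244675). The order was ES, IDE2+FGF2, IDE2, IDE2+FGF10 without overlap, although the second IDE2+FGF2 array came close to the lower ES array. Crmp1 was 5.05-fold lower in IDE2, 1.90-fold lower in IDE2+FGF2 and 6.88-fold lower in IDE2+FGF10 than in ES. It was 2.66-fold higher in IDE2+FGF2 than in IDE2 and 3.62-fold lower in IDE2+FGF10 than in IDE2+FGF2. A second probe was detected on the first ES array only.

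Elavl3 encodes the neuronal RNA-binding protein HuC. It had normalized log2 levels of 5.01 and 5.00 in IDE2, 5.65 and 5.47 in IDE2+FGF2, 4.94 and 4.65 in IDE2+FGF10, and 5.91 and 6.40 in ES (probe ILMN_2718837). It was detected only in IDE2+FGF2 and ES, close to the lowest detectable level in IDE2+FGF2 and slightly above it in ES. It was 1.51-fold lower in IDE2+FGF2 than in ES and at least 1.66-fold lower in IDE2 than in ES.

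**Figure D3:**
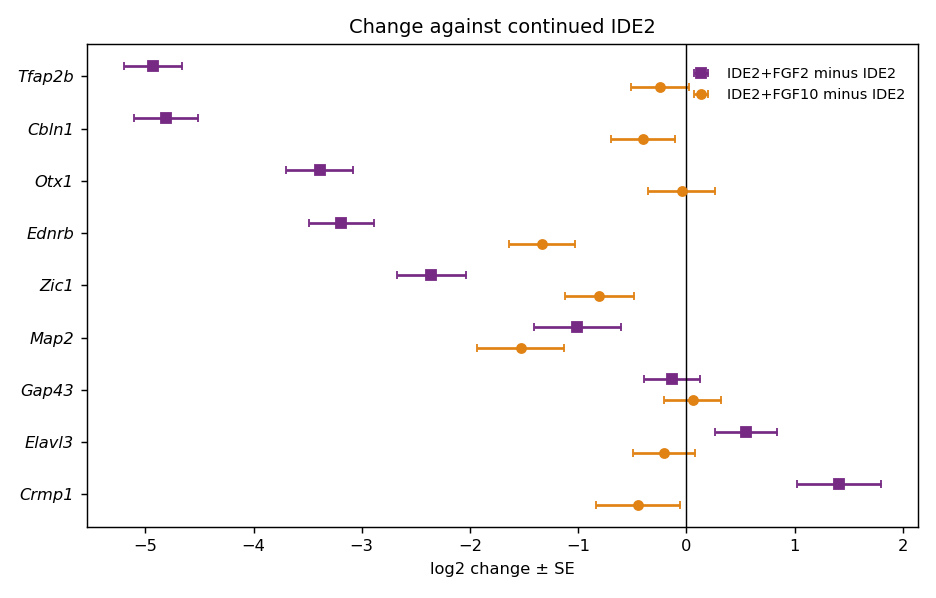
Log2 change (horizontal axis) of each of the 9 genes in IDE2+FGF2 minus IDE2 (squares) and in IDE2+FGF10 minus IDE2 (circles), with bars for the SE of the fit. Tfap2b, Cbln1, Otx1, Ednrb and Zic1 lie at -2.36 or lower with FGF2, while the FGF10 changes lie between -1.53 and 0.06.

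Both FGF comparisons share the IDE2 arrays, so their values are set side by side and not related to each other. Of the 9 genes, 0 were called higher and 5 lower in IDE2+FGF2 against IDE2, at an adjusted p under 0.05 in the limma fit, where 3.7% of the 9915 genes tested were called higher and 3.8% lower. At an unadjusted p under 0.05 these counts were 1 and 6. In IDE2+FGF10 against IDE2, 0 were called higher and 2 lower (0 and 3 at an unadjusted p under 0.05), with 4.13% and 9.76% of all genes. In IDE2+FGF10 against IDE2+FGF2, 5 were called higher and 1 lower, with 2.6% and 4.71% of all genes. Against ES, 7 were called higher and 2 lower in IDE2 (23.1% and 22.2% of all genes), 4 and 1 in IDE2+FGF2 (17.8% and 16.8%), and 7 and 2 in IDE2+FGF10 (22.2% and 22.8%). The genes were picked on these contrasts, so nothing is read from these counts.

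The size of the changes depended on the background correction, since several groups lay near background. Without it, the log2 change of Tfap2b in IDE2 against ES was 2.94 in place of 4.75 and that of Ednrb 3.21 in place of 5.34, with the same direction. Over 1020 values of these changes recomputed under 19 alternatives, no change of a called gene took the other sign.

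As a description over the 8 arrays, the levels of Tfap2b, Cbln1 and Otx1 moved together, with Pearson correlations of 0.989 for Tfap2b and Cbln1, 0.991 for Tfap2b and Otx1, and 0.983 for Cbln1 and Otx1. Zic1 and Ednrb had 0.982. Gap43 stood apart from this trio, with 0.588 to Tfap2b and 0.468 to Cbln1, and Crmp1 ran against it, with -0.891 to Tfap2b. These arrays form 4 groups, and the values mostly repeat the group means.

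The genes most like each member over the same 8 arrays, among the 9915 tested, were as follows. Lix1 was nearest to both Tfap2b (0.992) and Otx1 (0.995), and Spsb4 was in the top 3 of both (0.990 and 0.991). Cbln1 was nearest to Tfap2b itself, then to Rfc2 (0.987) and Igfbpl1 (0.985). Zic1 was nearest to Tnfaip1 (0.994), Gjb2 (0.991) and 2510009E07Rik (0.988), and Ednrb to Ypel1 (0.997), Sox5 (0.993) and Tox3 (0.989). Gap43 was nearest to Tgm2 (0.999), Igf2 (0.998) and Lrrc75a (0.997), and Map2 to Scel (0.991), Nudt11 (0.989) and Golim4 (0.988). Crmp1 was nearest to Atp1b1, Tubb4b (both 0.984) and Uchl3 (0.981), and Elavl3 to Ltb4r1 (0.983), Celsr3 and Wdr53 (both 0.980).

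Other genes of the same tissues were followed in 5 lists with 154 entries, of which 137 had a named probe and 87 were tested. The lists cover relatives and partners of the 9 genes, neural progenitor and dorsal neural genes, neural crest and glial genes, neurogenesis factors, and neuronal genes. Changes in these lists are tests of limma with Benjamini-Hochberg adjustment over all 9915 genes. The lists were chosen with earlier results of these data known, so their counts are not independent support for a pattern. A gene rose or fell where its adjusted p was under 0.05. The calls between the differentiated groups rest on few arrays: with each array left out in turn, 4 of 18 called genes passed in all 8 fits in IDE2+FGF2 against IDE2, 0 of 11 in IDE2+FGF10 against IDE2, and 5 of 14 in IDE2+FGF10 against IDE2+FGF2. Against ES these were 36 of 57 in IDE2, 21 of 43 in IDE2+FGF2 and 35 of 54 in IDE2+FGF10.

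In IDE2+FGF2 against IDE2, 0 of the 19 neural progenitor and dorsal neural genes tested rose and 8 fell. Those that fell are 42.1% of the list, beside 3.8% of all genes tested. The median log2 change of the list was -0.70, beside 0.02 for all genes. Its summed normalized level did not fall in the same way, with 6701 to 7783 in IDE2 and 6424 to 9300 in IDE2+FGF2. That sum was 5290 to 5458 in IDE2+FGF10 and highest in ES, at 11372 to 11602. At an unadjusted p under 0.05, 2 were higher and 10 lower. Of the 19, 17 were detected on both IDE2 arrays and 9 on both IDE2+FGF2 arrays. Genes that passed the detection filter through IDE2 had little room to rise, so the direction of this count was fixed in part. Without the filter 0 of 29 rose and 8 fell. The genes that this adds were detected on at most 1 array and could hardly be called, so this count does not lift the limit. Wnt3a, a roof plate signal, had normalized log2 levels of 4.87 and 4.83 in IDE2+FGF2, where it was not detected, against 9.70 and 9.10 in IDE2. It fell at least 15.4-fold (log2 change -4.55 ± 0.30, adjusted p = 3.7e-05). Wnt1, made in the dorsal midline of the midbrain and spinal cord, fell at least 3.91-fold (adjusted p = 0.00049). Among those named after their values were seen, Irx3, a homeodomain factor of the neural tube, had normalized log2 levels of 7.59 and 7.78 in IDE2+FGF2, against 9.71 and 9.67 in IDE2, and fell 4.03-fold (adjusted p = 0.0020). Rspo3, an enhancer of Wnt signalling made in the roof plate, was detected on 1 of 2 IDE2+FGF2 arrays and fell 5.83-fold (adjusted p = 0.0019).

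Wnt3a, Wnt1, Irx3 and Rspo3 passed in all 8 fits with 1 array left out. Msx1 and Lmx1a, both roof plate factors and also named after their values were seen, fell 4.33-fold (adjusted p = 0.0055) and at least 2.47-fold (adjusted p = 0.013), and neither passed without the second IDE2+FGF2 array. Without that array 4 of the 19 fell, and without any other single array 6 to 8 of those tested.

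Against ES, 10 of these 19 neural progenitor and dorsal neural genes rose and 2 fell in IDE2. These are 52.6% and 10.5%, beside 23.1% and 22.2% of all genes. In IDE2+FGF2 2 rose and 2 fell (10.5% each, beside 17.8% and 16.8%), and in IDE2+FGF10 8 and 3 (42.1% and 15.8%, beside 22.2% and 22.8%). Between the FGF groups the same list gave 6 genes higher and 2 lower in IDE2+FGF10 against IDE2+FGF2. These are 31.6% and 10.5% of the 19 tested, beside 2.6% and 4.71% of all genes. Of the 19, 17 were detected on both IDE2 arrays and 13 on both IDE2+FGF10 arrays. On both IDE2+FGF2 arrays 9 were detected, and on both ES arrays 8. The detection filter thus fixed in part the direction of the counts against ES and between the FGF groups. Wnt3a was at least 11.4-fold higher (adjusted p = 8.3e-05) and Wnt1 at least 5.99-fold higher (adjusted p = 0.00030). Gbx2, a factor of the anterior hindbrain, was 4.20-fold lower (adjusted p = 0.0055), and En2, of the midbrain-hindbrain border, 2.66-fold lower (adjusted p = 0.033). Wnt3a and Wnt1 passed in all 8 fits with 1 array left out, whereas Gbx2 passed in 6 and En2 in 2. Without the second IDE2+FGF2 array 4 were higher and 1 lower, and without either IDE2+FGF10 array 5 and 0. In IDE2+FGF10 against IDE2, 1 of the 19 rose and 2 fell, 5.26% and 10.5%, near the 4.13% and 9.76% of all genes. Lmx1b rose (2.12-fold, adjusted p = 0.031), and Rspo3 (3.40-fold, adjusted p = 0.012) and Gbx2 (2.64-fold, adjusted p = 0.019) fell. None of the 3 passed without the second IDE2 array or without either IDE2+FGF10 array, and without the first IDE2 array 6 rose and 4 fell.

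Relatives of the 9 genes did not all run with them. Otx2, the other Otx gene, had normalized log2 levels of 10.37 and 10.84 in IDE2, 12.02 and 12.37 in IDE2+FGF2, 9.98 and 9.88 in IDE2+FGF10, and 10.87 and 10.69 in ES. It was highest in IDE2+FGF2, the group in which Otx1 was near background, and rose 3.0-fold there against IDE2 (adjusted p = 0.012), a call lost without the second IDE2+FGF2 array (adjusted p = 0.085). Tfap2a had 8.16 and 8.04 in IDE2, 7.32 and 7.47 in IDE2+FGF2, 8.44 and 8.21 in IDE2+FGF10, and 6.59 and 6.52 in ES. It followed the order of groups of Tfap2b in part, and its change in IDE2+FGF2 against IDE2 (log2 -0.71) did not pass (adjusted p = 0.12). Of the Crmp1 relatives, Dpysl2 rose 13.1-fold in IDE2 against ES (adjusted p = 6.2e-06), where Crmp1 was lower, and Dpysl4 fell 3.12-fold in IDE2+FGF2 against IDE2 (adjusted p = 0.032). Of the Elavl3 relatives, Elavl2 fell 3.16-fold in IDE2+FGF10 against IDE2 (adjusted p = 0.0089) and Elavl4 at least 1.5-fold (adjusted p = 0.022). Dpysl2 passed in all 8 fits with 1 array left out, Dpysl4 in 1, Elavl2 in 6 and Elavl4 in 5.

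Over the whole list of relatives and partners, 22 genes were tested. In IDE2+FGF2 against IDE2 1 rose and 1 fell, 4.55% each beside 3.7% and 3.8% of all genes, and without the second IDE2+FGF2 array neither did. In IDE2 against ES 11 rose and 3 fell (50% and 13.6%, beside 23.1% and 22.2% of all genes), with Marcks, like Gap43 a growth cone substrate of protein kinase C, up 4.64-fold (adjusted p = 0.00011). The microtubule gene Mapt fell at least 24.5-fold in IDE2 against ES (adjusted p = 9.7e-06), while Map2 was higher there.

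Neural crest and glial genes numbered 10 tested of 28. Of these 10, 0 rose and 3 fell in IDE2+FGF2 against IDE2, beside 3.7% and 3.8% of all genes (3 and 3 at an unadjusted p under 0.05). The median log2 change of the list was 0.37, beside 0.02 for all genes. Its summed normalized level was 3817 to 3907 in IDE2 and 4694 to 5106 in IDE2+FGF2, so the list as a whole did not fall. Those that fell were Sox5 (2.86-fold, adjusted p = 0.014), Cdh6 (2.71-fold, adjusted p = 0.020) and, named after its value was seen, Sox9 (2.43-fold, adjusted p = 0.037). Without the second IDE2 array or the second IDE2+FGF2 array 0 fell, and without the first IDE2+FGF2 array 3 rose and 2 fell. In IDE2 against ES 5 rose and 2 fell (50% and 20%, beside 23.1% and 22.2% of all genes), with the myelin gene Mbp 12.8-fold higher (adjusted p = 2.9e-05), Sox5 at least 6.68-fold higher (adjusted p = 3.0e-05) and the neurotrophin receptor gene Ngfr at least 17.0-fold lower (adjusted p = 4.8e-06). Against ES, 6 rose and 2 fell in IDE2+FGF2, beside 17.8% and 16.8% of all genes, and 7 rose and 3 fell in IDE2+FGF10, beside 22.2% and 22.8%. The first of these became 4 and 1 without the first ES array and 3 and 1 without the second, and the second became 4 and 1 without any 1 array of IDE2+FGF10 or ES.

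Of 13 neurogenesis factors tested, 5 rose and 2 fell in IDE2 against ES (38.5% and 15.4%, beside 23.1% and 22.2% of all genes), and without the second IDE2 array these counts were 2 and 1, without the first ES array 3 and 1 and without the second 3 and 0. Those that rose include Isl1, of motor and sensory neurons, at least 3.33-fold higher (adjusted p = 0.00020), and Insm1 at least 2.97-fold higher (adjusted p = 0.00030). Insm1 fell 2.31-fold in IDE2+FGF2 against IDE2 (adjusted p = 0.036) and 2.20-fold in IDE2+FGF10 against IDE2 (adjusted p = 0.029), the single call of the list in each, with 0 genes higher. That is 7.69% lower in each, beside 3.8% of all genes in the first and 9.76% in the second. At an unadjusted p under 0.05, 1 was higher and 4 lower in IDE2+FGF2, and 0 and 5 in IDE2+FGF10. With 1 array left out, 0 to 4 fell in IDE2+FGF2 and 0 to 5 in IDE2+FGF10, in both cases the most without the first IDE2 array. Between the FGF groups 0 of 13 passed (1 higher and 1 lower at an unadjusted p under 0.05), where 2.6% of all genes were higher and 4.71% lower. Neurod1, Neurog1 and Atoh1 were not detected on any array.

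Of 23 neuronal genes tested, 9 rose and 8 fell in IDE2 against ES (39.1% and 34.8%, beside 23.1% and 22.2% of all genes). Against ES 7 rose and 8 fell in IDE2+FGF2 (30.4% and 34.8%, beside 17.8% and 16.8%), and 7 rose and 8 fell in IDE2+FGF10 (beside 22.2% and 22.8%). The IDE2+FGF2 counts became 4 and 3 without the first ES array and 5 and 4 without the second, and those of IDE2+FGF10 5 and 5 without the first ES array. Syt11, a synaptotagmin, rose 5.06-fold in IDE2 (adjusted p = 0.00012), 4.41-fold in IDE2+FGF2 (adjusted p = 0.00033) and 7.19-fold in IDE2+FGF10 (adjusted p = 3.8e-05) against ES. Nefh, the heavy neurofilament gene, fell at least 7.37-fold, 7.23-fold and 5.84-fold in the same 3 groups (adjusted p of 8.7e-06, 1.5e-05 and 1.1e-05). Nefh was detected on 2 arrays only, both of ES, so its direction was fixed by the detection filter. Against IDE2, 2 rose and 2 fell in IDE2+FGF2 (8.7% each, beside 3.7% and 3.8% of all genes). Thy1 rose 5.08-fold (adjusted p = 0.011) and the vesicle gene Slc17a6 fell 2.44-fold (adjusted p = 0.027). None of the 4 calls remained without the second IDE2 or the second IDE2+FGF2 array.

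**Figure D4:**
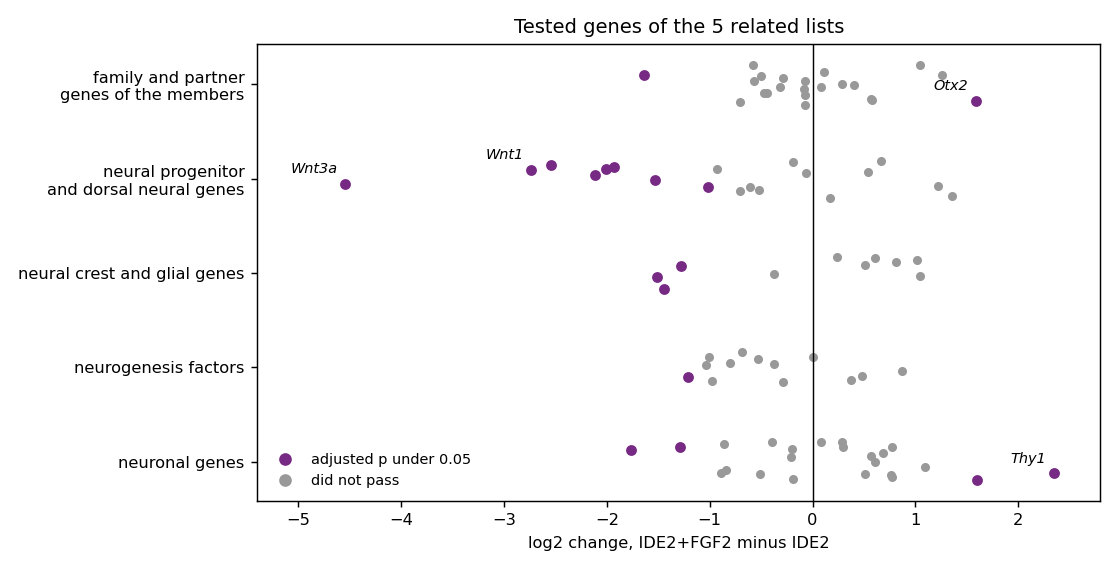
Log2 change (horizontal axis) in IDE2+FGF2 minus IDE2 for the 87 tested genes of the 5 lists (rows), with purple points for an adjusted p under 0.05 and grey points for those that did not pass. The neural progenitor and dorsal neural row holds 8 purple points, all below 0, with Wnt3a at -4.55 and Wnt1 at -2.74.

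Over the 5 lists together, 3 of 87 genes rose and 15 fell in IDE2+FGF2 against IDE2 (3.45% and 17.2%, beside 3.7% and 3.8% of all genes), 4 rose and 7 fell in IDE2+FGF10 against IDE2 (4.6% and 8.05%, beside 4.13% and 9.76%), and 8 were higher and 6 lower in IDE2+FGF10 against IDE2+FGF2 (beside 2.6% and 4.71%). With 1 array left out, the 18 calls of the first comparison became 4 (without the second IDE2+FGF2 array) to 28 (without the first), with 8 without the second IDE2 array and 11 without any 1 array of IDE2+FGF10 or ES. The 11 calls of the second became 0 without either IDE2+FGF10 array, 1 without the second IDE2 array and 26 without the first. The 14 of the third became 6 to 23. With median scaling in place of quantile normalization, these were 1 and 10 for the second comparison and 6 and 8 for the third, where the median log2 change of all genes was -0.12 and -0.27 with median scaling. Against ES, 40 rose and 17 fell in IDE2 (beside 23.1% and 22.2% of all genes), 27 and 16 in IDE2+FGF2 (17.8% and 16.8%), and 33 and 21 in IDE2+FGF10 (22.2% and 22.8%). The 43 calls of IDE2+FGF2 became 26 without either ES array.

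Markers of other cell types moved between the same groups. The summed normalized level of 10 genes of undifferentiated ES cells was 28140 to 51660 in IDE2, 77911 to 84589 in IDE2+FGF2, 46633 to 46677 in IDE2+FGF10 and 147595 to 162259 in ES, and all 10 were detected in every group. Of these 10, 5 rose and 0 fell in IDE2+FGF2 against IDE2, beside 3.7% and 3.8% of all genes (7 and 0 at an unadjusted p under 0.05). Pou5f1 rose 5.09-fold there (adjusted p = 0.0079), a call lost without the second IDE2 or the second IDE2+FGF2 array. Of 5 tested endothelial genes 3 rose there, beside 3.7% of all genes, with Emcn at least 13.3-fold higher (adjusted p = 2.2e-05). Emcn was detected on 2 arrays only, both of IDE2+FGF2. It passed the detection filter through that group, so its direction was fixed in advance. Cdh5 and Tie1 were not detected on any array and Pecam1 did not pass. The endothelial sum was 1488 to 1629 in IDE2+FGF2, 225 to 257 in IDE2, 290 to 337 in IDE2+FGF10 and 1246 to 1326 in ES. Undifferentiated ES cells nearly reached the sum of IDE2+FGF2, so it is a reading of these 5 genes and not of endothelium. The part of these cells in the lower levels of Tfap2b, Cbln1, Otx1, Zic1 and Ednrb and in the higher level of Crmp1 in IDE2+FGF2 was not tested.

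Mesenchyme and smooth muscle genes summed to 47650 to 49544 in IDE2, 41786 to 49240 in IDE2+FGF2, 35180 to 37871 in IDE2+FGF10 and 1603 to 1789 in ES. Of 9 tested, 8 rose in IDE2 against ES, beside 23.1% of all genes, led by Acta2 at 209-fold (adjusted p = 1.9e-07). Cnn1 and Postn were not detected on any array. The list of surface ectoderm genes summed to 24368 to 24971 in IDE2, 16389 to 26676 in IDE2+FGF2, 32639 to 35881 in IDE2+FGF10 and 2726 to 2827 in ES. Most of this sum was Krt8 and Krt18, so it is a reading of these keratins and not of surface ectoderm. Dlx5 was not detected on any array and Krt5 did not pass the detection filter. In IDE2+FGF2 against IDE2, where 3.7% of all genes rose and 3.8% fell, 1 mesenchymal gene of 9 rose and 1 fell. Of 8 genes of the surface ectoderm list, 0 rose and 1 fell (0 and 1 at an unadjusted p under 0.05). The 1 that fell was Trp63 (at least 2.12-fold, adjusted p = 0.036, passing in 1 of 8 fits with 1 array left out). Trp63 was detected on 2 arrays only, both of IDE2, so its direction was fixed by the detection filter. The part of mesenchyme and surface ectoderm in the levels of the 9 genes was not tested.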

How the data were processed

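Gene expression in mouse E14TG2a cells was measured on 8 Illumina BeadChip arrays, 2 for each of 4 groups taken from the sample titles. The deposited table holds, per the file headers, each probe's linear and unnormalized mean intensity over its beads, with the bead count, the standard error of this signal and a detection p-value. BeadStudio made these values, per the submitters' processing notes. A second deposited table of intensities normalized between arrays (array medians 144.53 to 144.89) was used as an alternative. Its method is not given in the sources used here. The deposited intensity and detection p-value of 25697 probes were background-corrected, quantile-normalized and put on a log2 scale with limma 3.58.1 (neqc, offset 16) in R 4.3.3. Probes with detection p-values below 0.05 on 2 arrays or more were kept (14502 probes). A gene, named by the platform annotation, was given by its brightest kept probe (9915 genes). One mean per group was fitted over all 8 arrays with moderated variances (4 residual and 6.645 prior degrees of freedom), 6 differences were tested, and p-values were adjusted over all genes by Benjamini-Hochberg.

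Every value of the 9 genes is a description, since their levels on these arrays chose them. The members and lists were chosen with earlier results of these data known. Genes named as called in a related list and comparison were taken from the 2 with the largest rise and the 2 with the largest fall among those past the threshold without overlap of arrays, besides those said to be named after their values were seen. They are not named for every list and comparison. The 3 genes most like a member were taken by Pearson correlation over the 8 arrays. The fit was tested on simulated data. No alternative was added to the 19 planned ones, and 0 columns of per-sample values were left unassigned. Numbers shared between groups were checked for pairing by the correlation of deviations from group means, which was -0.067 to 0.012. No pairing was seen by this measure, which cannot exclude that the numbers mark a shared run. The median raw signal of replicates 1 and 2 was 117 and 173 in ES and 130 and 162 in IDE2. It was 137 and 175 in IDE2+FGF2 and 130 and 133 in IDE2+FGF10.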

Additional observations from a re-analysis of the deposited data

How the results depend on the processing

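Over the 54 changes of the 9 genes, 1020 values were recomputed under 19 alternatives, and 0 changed sign for a called gene. With 1 array left out 398 moved by less than the spread between replicates and 34 by more, and under the other alternatives 438 and 150. Elavl3 was not tested under the stricter detection filter. Of the 87 related genes, 57 were called in IDE2 against ES (41 to 58 with 1 array left out, 38 to 58 over all 19 alternatives) and 54 in IDE2+FGF10 against ES (37 to 55 with 1 array left out, 37 to 62 over all 19), within 1.5 times under every alternative run. In IDE2+FGF2 against ES 43 were called, and 26 to 48 with 1 array left out. In IDE2+FGF2 against IDE2 18 were called, with 11 without background correction, 11 from the deposited normalized table, 8 with only the arrays of the 2 groups compared, and 4 to 28 with 1 array left out. In IDE2+FGF10 against IDE2 11 were called, with 7 without background correction, 7 from the deposited normalized table, 6 under the stricter filter, 0 with only the arrays of the 2 groups compared (limma, where 23 of the related genes and 2828 of all genes had an unadjusted p under 0.05), and 0 to 26 with 1 array left out. In IDE2+FGF10 against IDE2+FGF2 14 were called, with 28 without the second arrays of IDE2 and IDE2+FGF2 and 6 to 23 with 1 array left out. Fits of fewer arrays have fewer degrees of freedom, and the cause of the other shifts was not tested. With the replicate number as a block the counts in the same order were 56, 52, 42, 17, 11 and 14, so the replicate block moved none of them by over 1.5 times. Over all 9915 genes, the calls of IDE2 against ES were 4496 (2697 to 4826 with 1 array left out), of IDE2+FGF2 against ES 3423 (1695 to 4217, and 5317 without the second arrays of IDE2 and IDE2+FGF2), and of IDE2+FGF10 against ES 4471 (2762 to 5176). Those of IDE2+FGF2 against IDE2 were 744 (254 with only the arrays of the 2 groups compared, 89 to 2369 with 1 array left out), of IDE2+FGF10 against IDE2 1377 (0 and 1 to 3222), and of IDE2+FGF10 against IDE2+FGF2 725 (382 and 69 to 1582, with 1373 under median scaling and 2364 without the second arrays of IDE2 and IDE2+FGF2). Levels near background limit the folds of Tfap2b, Zic1, Ednrb and Elavl3, and also those of Otx1 and Cbln1 in IDE2+FGF2 and of Otx1 and Map2 against ES. Beads of a probe are not independent cultures.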
